A study of Rattus norvegicus with 20 samples.

Results

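The complement components and receptors measured here were 9 of the 39747 genes in the count table: the C1q chain genes C1qa, C1qb, and C1qc, the protease gene C1s, the central component gene C3, the factor D gene Cfd, the receptor genes C3ar1 and C5ar1, and the inhibitor gene Serping1. Members were taken by gene symbol, and all 9 were found. Complement is a cascade of secreted proteins that tags cells and debris for removal and calls in leukocytes. In the classical pathway, C1q binds a target and activates the proteases C1r and C1s, which lead to cleavage of C3, while factor D serves the alternative pathway; C3a and C5a, the small fragments released on the way, act through C3AR1 and C5AR1. Macrophages and microglia are well-known producers of C1q, fibroblasts and other stromal cells produce C1s and C1 inhibitor, and adipocytes are rich in factor D.

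RNA was sequenced from whole dorsal root ganglia (DRG), which hold the cell bodies of sensory neurons together with satellite glia, Schwann cells, fibroblasts, vessels, and macrophages. All animals were female wild-type Sprague-Dawley rats fed a soy oil diet (SOD) or a fish oil diet (FOD) from 4 weeks before surgery, and the labels gave no age. DRG were collected 1 week after surgery. The labels gave 4 weeks of diet after surgery but 1 week of recovery, so the stated diet time runs past collection. Chronic constriction injury (CCI) was made with 4 loose chromic gut ligatures on the left sciatic nerve, and sham rats (CT) had the nerve exposed only. On the left side there were DRG of 4 sham and 3 injured SOD rats (SOD-CT, SOD-CCI) and of 3 sham and 4 injured FOD rats (FOD-CT, FOD-CCI). Right DRG of 3 injured rats of each diet, called contralateral, completed the 6 groups; these 6 rats gave both sides, so that left and right could be compared within a rat. The contralateral DRG came from injured rats and were not a sham control.

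Depth ranged from 22547190 to 54437581 counts over the 20 libraries. Spinal cord transcripts were present in 3 libraries of the FOD groups: the summed level of spinal cord and microglia markers was 3410 CPM in FOD-CT replicate 1, 2120 CPM in the library labelled FOD-CCI replicate 1, and 3970 CPM in its contralateral DRG, against at most 114 CPM in the other libraries. That contralateral library was also low in neuron markers, which summed to 2180 CPM, with 2 of 8 at 0 counts. Its left partner was at 11600 CPM and every other library at 5870 CPM or more, so the 2 sides of this rat differed in their content of neuron transcripts. The library labelled FOD-CCI replicate 1 also went against its label, since the injury marker Atf3, a transcription factor gene induced in axotomized neurons, was at 3.24 CPM there and at 202 to 514 CPM in the other FOD-CCI libraries. SOD-CT replicate 1 was rich in muscle transcripts (summed markers 90600 CPM). These markers also reached 15000 CPM in FOD-CT replicate 2, 4850 CPM in FOD-CCI contralateral replicate 3, and 3600 CPM in SOD-CT replicate 4. In the left CCI libraries they were at most 45.5 CPM in SOD and 139 CPM in FOD. Neutrophil markers summed to 2590 CPM in FOD-CCI replicate 2 and 738 CPM in SOD-CT replicate 4 and to at most 394 CPM elsewhere. Where leaving out such a library moved a result clearly, the value without it is given beside it. CPM are counts scaled to library size and by TMM, which corrects for differences in library composition.

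The promoters of C1qa, C1qb, and C3 are shown because these genes had the largest left to contralateral differences among the members for which a promoter was at hand (5 of 9 members were in the RefSeq promoter table). They run from 250 bases before to 50 bases after the annotated start in build GRCr8, all on the minus strand, written 5′ to 3′. C1qa is at chr5:154419884-154420183, C1qb at chr5:154407778-154408077, and C3 at chr9:2201290-2201589. Capitals mark matches to GAGGAA, the core bound by the macrophage factor PU.1, or to TTNNGNAAT, a loose form of the C/EBP site, each searched on both strands.
C1qa: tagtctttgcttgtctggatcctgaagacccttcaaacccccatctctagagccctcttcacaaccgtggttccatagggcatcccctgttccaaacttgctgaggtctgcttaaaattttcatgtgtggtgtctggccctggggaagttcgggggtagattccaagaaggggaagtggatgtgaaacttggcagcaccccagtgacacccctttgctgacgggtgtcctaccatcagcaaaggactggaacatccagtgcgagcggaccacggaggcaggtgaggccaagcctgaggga
C1qb: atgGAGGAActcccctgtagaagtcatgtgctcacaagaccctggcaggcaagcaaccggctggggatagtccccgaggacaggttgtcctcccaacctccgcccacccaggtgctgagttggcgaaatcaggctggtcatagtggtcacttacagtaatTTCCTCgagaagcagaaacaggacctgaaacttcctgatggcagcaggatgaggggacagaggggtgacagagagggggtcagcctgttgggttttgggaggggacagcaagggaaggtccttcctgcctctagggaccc
C3: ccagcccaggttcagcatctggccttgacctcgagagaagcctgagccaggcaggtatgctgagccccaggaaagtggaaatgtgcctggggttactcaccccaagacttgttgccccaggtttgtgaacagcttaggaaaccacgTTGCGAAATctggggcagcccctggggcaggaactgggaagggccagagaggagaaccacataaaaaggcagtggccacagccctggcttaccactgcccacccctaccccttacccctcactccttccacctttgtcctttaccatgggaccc
GAGGAA was in 1 of the 5 member promoters (C1qb, with 2 matches, at −247 to −242 and, read on the opposite strand, at −90 to −85) and in 27.6% of all 33469 promoters of this length. TTNNGNAAT was in 1 of the 5 (C3, at −104 to −96) and in 12.3% of all promoters. The matches of the 2 motifs did not overlap, and neither was in the C1qa window. The same annotation places C1qb, C1qc, and C1qa side by side on chromosome 5, between 154402276 and 154419933, and C1r (159099013 to 159109770) beside C1s (159116549 to 159128736) on chromosome 4.

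Per unit of transcript length, the most abundant members were C1qa and Serping1. Mean FPKM over the 20 libraries was 53 for C1qa, 43.8 for Serping1, 34.7 for C1qc, 24.6 for C1qb, 17.2 for C1s, 8.94 for Cfd, 4.57 for C3, 3.64 for C5ar1, and 0.612 for C3ar1. The libraries spread widely around these means, with C1qa from 8.30 to 175 FPKM and Serping1 from 9.96 to 121 FPKM, so that neighbors in this order overlapped. C3ar1 was the one member below the filter on low counts (at least 10 counts in 90% of the libraries of a fit), which left 8 members for the tests across all genes.

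**Figure D1:**
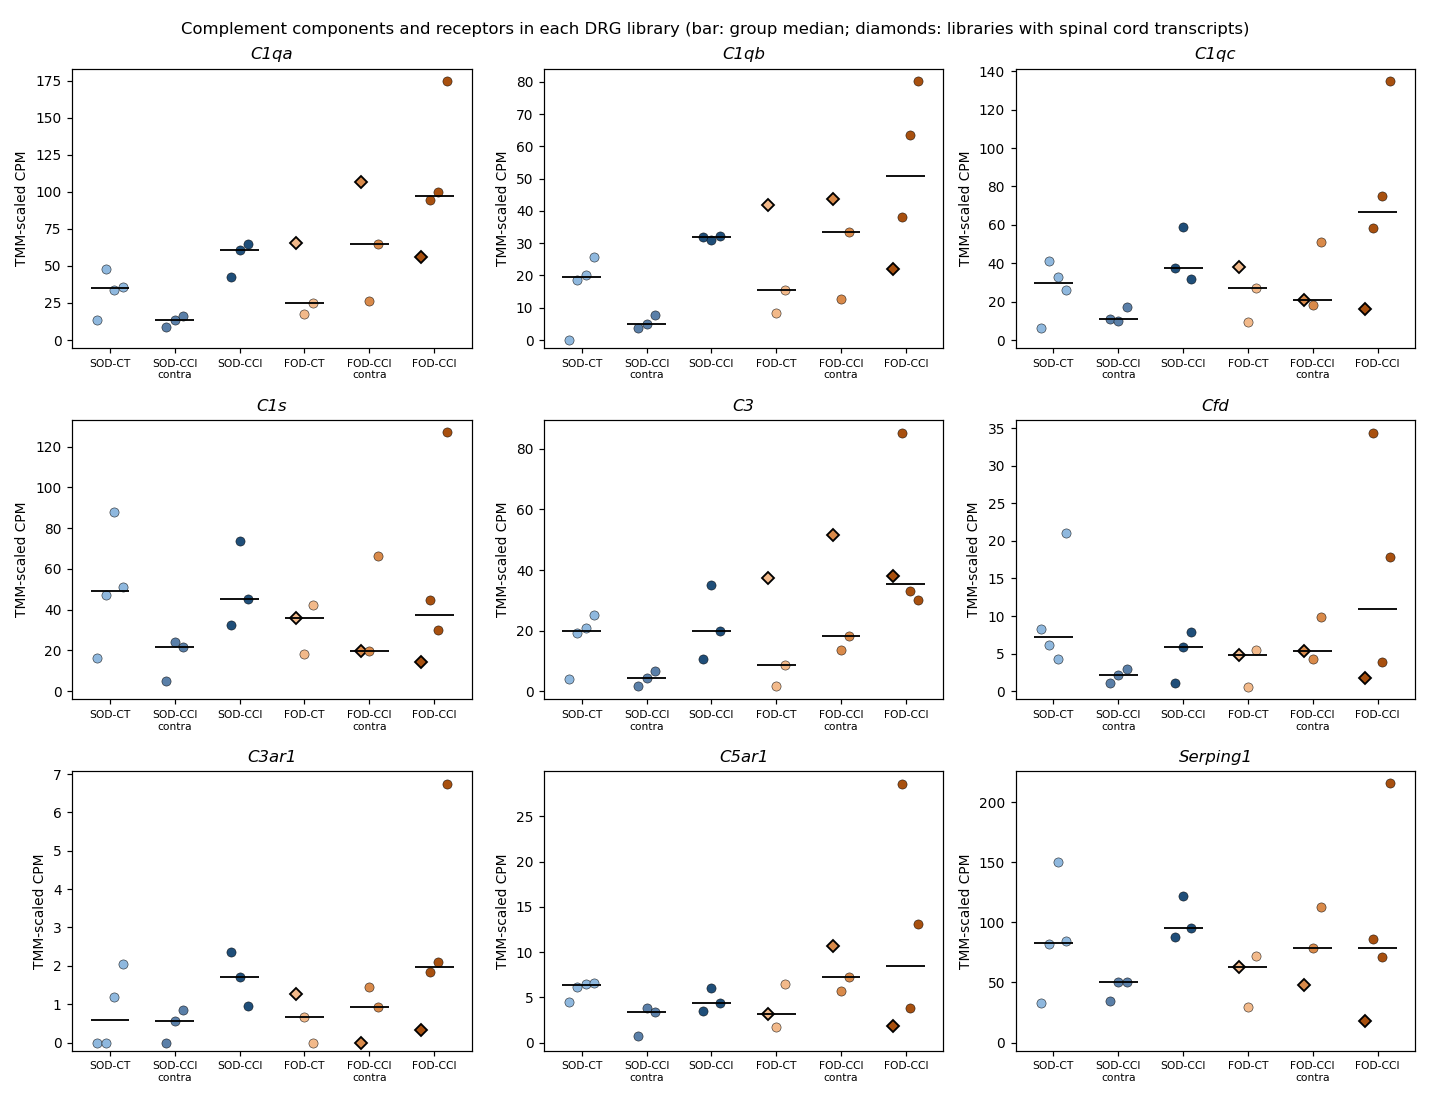
Level of each complement member in TMM-scaled CPM (linear axis from 0) in every library of the 6 groups; horizontal bars are group medians and diamonds are the 3 libraries with spinal cord transcripts. The 3 SOD-CCI libraries lie above the 3 SOD-CCI contralateral libraries for 7 of the 9 members, against 10.1% of all genes. In the FOD groups the 4 left and 3 contralateral libraries, with a diamond on each side, overlap for all 9 (2.52% of all genes had every left FOD library above every contralateral one).

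C1q, the recognition molecule that starts the classical pathway, was higher in the injured than in the contralateral DRG of every SOD rat and of 2 of the 3 FOD rats, for all 3 of its chain genes. C1qa was at 42.5, 61.1, and 64.6 CPM in the left and 8.67, 13.7, and 16.2 CPM in the contralateral DRG of SOD-CCI rats 1 to 3. In FOD-CCI rats 1 to 3, C1qa was at 56.2, 94.5, and 99.7 CPM on the left and 107, 26.5, and 64.9 CPM on the contralateral side. The SOD groups did not overlap, while in FOD rat 1, the rat with spinal cord transcripts in both DRG, the contralateral library was the higher one.

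C1qb, the chain with the largest difference in SOD rats, was at 31.9, 30.9, and 32.2 CPM on the left and 3.77, 4.89, and 7.79 CPM on the contralateral side of the SOD rats. On FOD diet it was at 22.0, 38.2, and 63.4 CPM on the left and 43.6, 12.7, and 33.5 CPM on the contralateral side. The left SOD libraries were nearly equal to each other, at 4.14 to 8.46 times the level of their own contralateral DRG, and FOD rat 1 again had the higher level on the contralateral side.

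C1qc was at 37.5, 58.7, and 31.6 CPM on the left and 11.2, 9.77, and 17.1 CPM on the contralateral side of the SOD rats. It was at 16.2, 58.5, and 75.2 CPM on the left and 20.9, 18.4, and 51.1 CPM on the contralateral side of the FOD rats. The left to contralateral ratio was thus 1.85 to 6.01 in SOD rats, 3.17 and 1.47 in FOD rats 2 and 3, and 0.777 in FOD rat 1.

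C1s, the protease that C1r activates and that cleaves C4 and C2, was higher on the injured side less evenly. It was at 32.4, 73.7, and 45.1 CPM on the left and 5.17, 24.2, and 21.7 CPM on the contralateral side of the SOD rats. In the FOD rats it was at 14.6, 44.6, and 30.0 CPM on the left and 19.9, 19.9, and 66.5 CPM on the contralateral side. Every left SOD library was above every contralateral SOD library, but FOD rat 2 was the only FOD rat with a higher left level.

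C3, on which all pathways converge, differed between the sides in the same direction as the C1q chains in every rat with both DRG. It was at 10.5, 35.1, and 19.8 CPM on the left and 1.66, 4.49, and 6.82 CPM on the contralateral side of the SOD rats. Among FOD rats it was at 38.1, 85.4, and 33.0 CPM on the left and 51.6, 13.6, and 18.3 CPM on the contralateral side. The SOD groups did not overlap, with ratios of 2.90 to 7.83, and FOD rats 2 and 3 had ratios of 6.27 and 1.80 against 0.738 in FOD rat 1.

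Cfd, the protease that cleaves factor B in the alternative pathway, was one of the less abundant members. It was at 1.11, 5.94, and 7.86 CPM on the left and 1.13, 2.15, and 2.94 CPM on the contralateral side of the SOD rats. In the FOD rats it was at 1.77, 34.4, and 3.94 CPM on the left and 5.35, 4.33, and 9.91 CPM on the contralateral side. The groups overlapped in both diets, and the 34.4 CPM of FOD-CCI replicate 2 came from the library with the highest neutrophil markers. Of the 6 adipocyte markers, Plin1, Lep, and Retn had no counts in 16, 18, and 16 of the 20 libraries. Adipoq, Cidec, and Fabp4 had none in 4, 3, and 1. The summed level of the 6 was 0.792 to 8.45 CPM in contralateral and 3.88 to 9.99 CPM in left SOD-CCI DRG. In FOD rats the sum was 1.81 to 34.8 CPM in contralateral and 0.883 to 34.7 CPM in left DRG, highest in FOD-CCI contralateral replicate 3 and FOD-CCI replicate 2, which also held the most Cfd of their groups. The highest sum of all libraries, 292 CPM, was in SOD-CT replicate 1, where Cfd was at 8.27 CPM. The part of the neutrophil and adipocyte markers in the Cfd levels was not tested.

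The anaphylatoxin receptor C5ar1, found on myeloid cells, was at 3.49, 6.01, and 4.39 CPM on the left and 0.679, 3.86, and 3.42 CPM on the contralateral side of the SOD rats. In the FOD rats it was at 1.80, 28.6, and 3.77 CPM on the left and 10.7, 5.74, and 7.22 CPM on the contralateral side. The groups overlapped in both diets, and the highest value was again that of FOD-CCI replicate 2. C3ar1, the receptor of C3a, was at 2.37, 1.71, and 0.95 CPM on the left and 0, 0.561, and 0.85 CPM on the contralateral side of the SOD rats. In the FOD rats C3ar1 was at 0.331, 1.85, and 2.09 CPM on the left and 0, 1.44, and 0.936 CPM on the contralateral side. A count of 0 allowed up to 3 counts, which was 0.113 CPM in the SOD library and 0.123 CPM in the FOD library, for counting error only. C3ar1 was the one member with a higher left than contralateral level in all 6 rats, with a mean difference of 0.66 on the log2(CPM + 1) scale, which understates changes of low genes (exact two-sided permutation test over sign changes, unadjusted p = 0.0312, the smallest that 6 rats allow). Among the 14549 genes tested, 5.24% were higher on the left in all 6 rats.

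Serping1, which encodes the C1 inhibitor that blocks C1r and C1s, was at 88.2, 122, and 95.3 CPM on the left and 34.9, 50.1, and 50.1 CPM on the contralateral side of the SOD rats. Among FOD rats it was at 18.1, 86.2, and 71.6 CPM on the left and 47.9, 78.8, and 113 CPM on the contralateral side. All 3 SOD rats had ratios of 1.90 to 2.53, whereas the FOD rats had ratios of 0.379, 1.09, and 0.631.

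**Figure D2:**
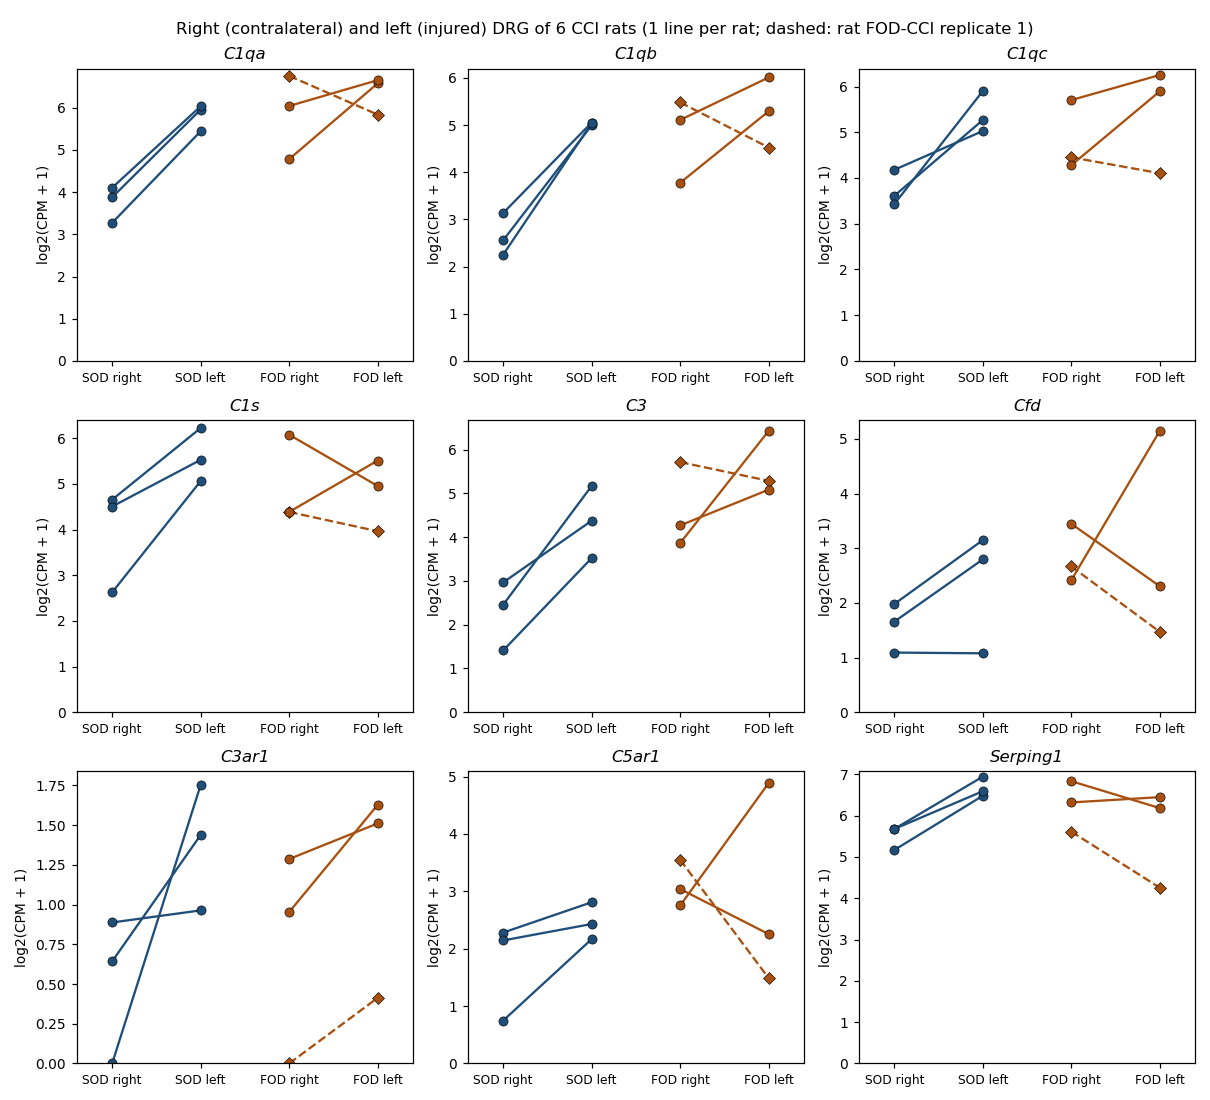
Right (contralateral) and left (injured) DRG of the 6 CCI rats, as log2(CPM + 1) per member; each line is 1 rat, blue for SOD and brown for FOD, and the dashed line is the rat with spinal cord transcripts in both DRG. The 3 SOD lines rise for every member except Cfd, where the line of SOD rat 1 is level (1.13 to 1.11 CPM), and the dashed line falls for every member except C3ar1.

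Over both diets, C1qb was the one complement member called (edgeR's quasi-likelihood test with the rat as a block; calls needed a fold change of 1.2 or more and a Benjamini-Hochberg adjusted p no higher than 0.1). It rose by a log2FC of 1.55 (SE 0.32, n = 6 rats, edgeR adjusted p = 0.0995), 2.93-fold, and was higher in 5 of 6 rats. In this comparison 0.962% of the 14549 genes tested were called, and 0.811% of the 14549 were called as higher. Of the other members, the log2FC was 1.68 for C3 (SE 0.38), 1.32 for C1qa (SE 0.31), and 1.17 for C1qc (SE 0.29), with edgeR adjusted p of 0.131, 0.136, and 0.172. C1s was at 0.79, Cfd at 0.39, C5ar1 at 0.27, and Serping1 at 0.26, with adjusted p from 0.389 to 0.909. The median log2FC of the 8 members was 0.98, and that of all genes was 0.03. The C1qb call lay at the threshold: it was kept without FOD-CCI rat 1 and lost when any 1 of the other 5 rats was left out, over which fits and the other alternatives its adjusted p ran from 3.61e-05 to 0.447.

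Without FOD-CCI rat 1, whose left library carried spinal cord transcripts and was low in Atf3, 4 members rose over both diets, in a fit that called 4.32% of 14992 genes as higher. These were C1qa (log2FC 1.67, SE 0.20, edgeR adjusted p = 0.00207), C1qb (1.91, SE 0.20, adjusted p = 0.00134), C1qc (1.41, SE 0.26, adjusted p = 0.0178), and C3 (2.05, SE 0.31, adjusted p = 0.00765), each higher in 5 of 5 rats. The rat left out was the only one with lower left levels of these 4, so the 5 of 5 follows from leaving it out. C1s (0.86), Serping1 (0.44), Cfd (0.91), C5ar1 (0.86), and C3ar1 (1.44, which passed the filter here) were not called.

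In SOD rats alone, the fit of all 6 rats called none of the 8 members, although 6 of them had an unadjusted p under 0.05 with a higher left level, against 5.34% of all genes; 0.131% of all genes were called there. The log2FC was 2.62 for C1qb (SE 0.46), 2.40 for C3 (SE 0.54), 2.17 for C1qa (SE 0.43), 1.78 for C1s (SE 0.45), 1.76 for C1qc (SE 0.42), and 1.21 for Serping1 (SE 0.27). Their edgeR adjusted p ran from 0.131 for C1qb to 0.27 for C1s. C5ar1 (1.09, SE 0.83) and Cfd (1.02, SE 0.83) had the largest errors. The median over the 8 members was 1.77 and that over all genes 0.02, and 7 of the 9 members had every SOD-CCI library above every contralateral one, against 10.1% of all genes. Of these 7, all but C3ar1 were called by edgeR without FOD-CCI rat 1, with log2FC of 1.21 to 2.61, adjusted p from 0.0023 to 0.0839, and 2.03% of all genes called as higher. This rat is not in the SOD groups, but both diets share the estimate of the spread in the fit: the SE of C1qa, for instance, was 0.43 with the rat and 0.25 without it. The same 6 members were called by DESeq2 and by edgeR without the filter on low counts. Of all genes, DESeq2 called 472 of 14549 and the fit without the filter 220 of 27477.

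In FOD rats, none of the 8 members was called on the left against the contralateral side (edgeR; 0.0137% of all genes were), and 1 had an unadjusted p under 0.05, against 6.96% of all genes: Serping1, at a log2FC of −0.69 (SE 0.28). The log2FC was 0.95 for C3 (SE 0.55), 0.57 for C1qc (SE 0.42), 0.49 for C1qb (SE 0.46), 0.46 for C1qa (SE 0.44), −0.21 for C1s (SE 0.46), −0.25 for Cfd (SE 0.96), and −0.55 for C5ar1 (SE 0.95), with edgeR adjusted p of 0.664 or more. Without FOD-CCI rat 1, which leaves 2 FOD rats, the values were 1.70 for C3 (SE 0.48), 1.2 for C1qb (SE 0.31), 1.17 for C1qa (SE 0.30), and 1.06 for C1qc (SE 0.40), with adjusted p from 0.175 to 0.332 and none called, where 0.914% of all genes were. All 4 had an unadjusted p under 0.05, against 6.63% of all genes that were higher at that level. Cfd and C5ar1 then stood at 0.78 and 0.64, so their direction turned, while C1s stayed at −0.05 and Serping1 at −0.32. Without FOD-CCI rat 2, the rat with the highest neutrophil markers, C1qa was at −0.21 and C1qb at −0.085, so the direction of both in FOD rats turned on 1 animal. DESeq2 called none of the members here, and 264 of the 14549 genes.

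**Figure D3:**
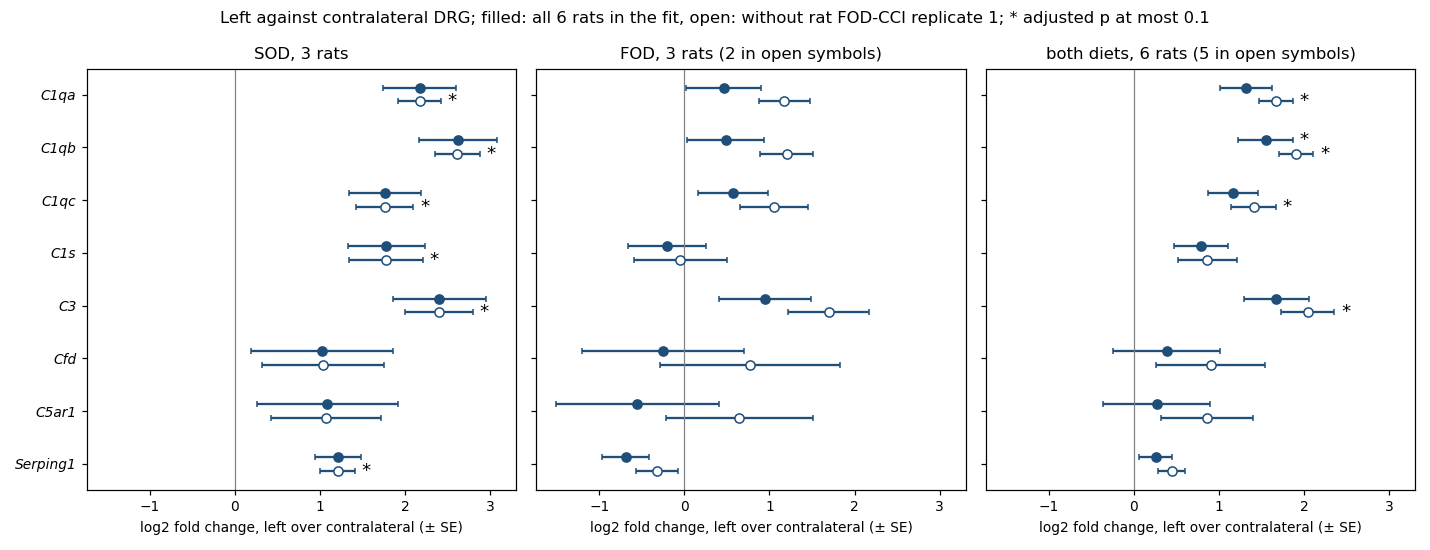
log2 fold change of left over contralateral DRG with its SE for the 8 members past the filter, in SOD rats, FOD rats, and both; filled symbols are the fit of all 6 rats, open symbols the fit without FOD-CCI rat 1, and asterisks mark adjusted p of at most 0.1. The SOD estimates lie between 1.02 and 2.62 and barely move when the rat is left out, while the FOD estimates for C1qa, C1qb, C1qc, and C3 lie between 0.46 and 0.95 with the rat and between 1.06 and 1.70 without it.

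Whether the injured side responded differently in the 2 diets was tested on the left to contralateral log2FC itself, FOD minus SOD. All 8 members had a lower log2FC in FOD rats, with a median difference of −1.67 (median of all genes, 0.03; 53.2% of all genes were above 0), but none was called by edgeR (0% of the 14549 genes were). At an unadjusted p under 0.05, 4 members were lower, against 2.11% of all genes: Serping1 at −1.90 (SE 0.39), C1qb at −2.13 (SE 0.64), C1s at −1.99 (SE 0.64), and C1qa at −1.71 (SE 0.61). The edgeR adjusted p of each was 0.997. Without FOD-CCI rat 1, the difference was −1.53 for Serping1, −1.41 for C1qb, −1.82 for C1s, and −0.996 for C1qa, again the members under an unadjusted p of 0.05 (2.03% of all genes were lower at that level). Without FOD-CCI rat 2, the neutrophil-rich one, these were −2.29, −2.7, −2.64, and −2.38. The median of the members was −0.996 without rat 1 and −2.46 without rat 2, so its size rested on single FOD rats. DESeq2 called C1qb and Serping1 in the fit of all 6 rats, where it called 60 of the 14549 genes. Marker genes of other cells were lower in FOD rats too. Of 5 fibroblast markers tested, 0 had a higher value in FOD rats and 4 were lower at an unadjusted p under 0.05, with a median difference of −1.78 (median left to contralateral log2FC of 0.77 in SOD and −1.01 in FOD rats). Of 10 macrophage markers, 1 was higher and 3 were lower at that level, with a median of −1.42. The part of these markers in the difference was not tested.

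The difference between diets included a difference between the contralateral sides, which is given next since each side enters the ratio. Against SOD-CT, whose 4 libraries held C1qa at 13.3, 47.9, 33.8, and 36.1 CPM, SOD-CCI contralateral DRG, at 8.67, 13.7, and 16.2 CPM, reached into the sham range only through SOD-CT replicate 1, the muscle-rich library. All 8 members had a negative log2FC in SOD-CCI contralateral against SOD-CT (median −1.48, all genes −0.02; 48.3% of all genes were above 0), and 4 had an unadjusted p under 0.05, against 5.98% of all genes: Cfd at −2.31 (SE 0.80), C3 at −2.04 (SE 0.91), C1s at −1.59 (SE 0.65), and C1qa at −1.38 (SE 0.57). None was called (edgeR adjusted p 0.70 or more; 0% of 14007 genes; DESeq2 also 0). The median was −1.75 without the muscle-rich SOD-CT replicate 1 and −1.28 without SOD-CT replicate 4, in whose absence Cfd stood at −1.60. Markers of blood and immune cells were lower in the same comparison, with medians of −1.30 for 8 macrophage, −3.61 for 5 neutrophil, and −3.82 for 3 red cell markers, of which 4, 4, and 3 had an unadjusted p under 0.05, and of −0.96 for 5 fibroblast markers (2 at that level); their part was not tested. C5ar1 was at 4.47, 6.18, 6.51, and 6.56 CPM in SOD-CT and Cfd at 8.27, 6.18, 4.34, and 21.1 CPM, and for both every contralateral SOD library lay below every sham library, against 3.53% of all genes.

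Between the contralateral DRG of the diets, FOD against SOD, all 8 members had a positive log2FC (median 1.69, all genes 0.04; 53% of all genes were above 0), and for 6 of the 9 members every FOD library lay above every SOD library, against 6.55% of all genes. C3 was at a log2FC of 2.77 (SE 0.97), C1qb at 2.54 (SE 1.15), C1qa at 2.45 (SE 0.61), and C5ar1 at 1.65 (SE 0.66), the 4 members with an unadjusted p under 0.05 (4.5% of all genes were higher at that level). None was called by edgeR (0% of 14007 genes), and DESeq2 called C1qa, as 1 of 58 genes called out of 14007. Without FOD contralateral replicate 1, with its spinal cord transcripts and low neuron markers, C1qa stood at 1.91 (SE 0.51), C3 at 1.96 (SE 0.79), C1qb at 2.16 (SE 1.21), and C5ar1 at 1.36 (SE 0.73). The markers of other cells were higher as well: 8 of 8 macrophage markers (median 1.55, 5 at an unadjusted p under 0.05), 5 of 5 neutrophil markers (3.32, 3 at that level), 3 of 3 red cell markers (3.56, 3 at that level), and 4 of 4 endothelial markers (1.10, 2 at that level). Their part in the complement levels was not tested.

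Against sham DRG, no complement member was called in either diet. These comparisons use the same left CCI libraries as above, and in FOD also FOD-CCI replicate 4, so they are not independent of them. In SOD-CT replicates 1 to 4, C1qb was at 0, 18.7, 20.2, and 25.6 CPM, and all 3 SOD-CCI libraries, at 30.9 to 32.2 CPM, lay above them; C1qb was the 1 of 9 members whose groups did not overlap in this direction, against 9.54% of all genes. The count of 0 was in the muscle-rich library, which held 200 counts of C1qa, and allowed up to 0.2 CPM. In SOD-CCI against SOD-CT, the log2FC was 0.99 for C1qb (SE 0.93), 0.79 for C1qa (SE 0.49), and −0.99 for Cfd (SE 1.00), and the median of the 8 members was 0.29 (all genes −0.01). These values rested on single libraries: without SOD-CT replicate 1, C1qb was at 0.56, C1qa at 0.52, and the median at −0.02, without SOD-CCI replicate 2 the median was −0.05, and without SOD-CT replicate 4 Cfd was at −0.32. All 3 muscle markers tested were lower in SOD-CCI at an unadjusted p under 0.05 (edgeR, median log2FC −10.2), and their part was not tested. None of the members was called or had an unadjusted p under 0.05 (edgeR; 0% and 13.8% of the 14484 genes were; DESeq2 called no member either).

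In FOD-CCI against FOD-CT all 8 members had a positive log2FC, as 50.8% of all genes did. C1qa was at 56.2, 94.5, 99.7, and 175 CPM in FOD-CCI replicates 1 to 4 and at 65.4, 17.5, and 24.8 CPM in FOD-CT replicates 1 to 3. The 2 groups overlapped through their replicate 1 libraries alone, the pair with spinal cord transcripts. The log2FC was 1.58 for C1qa (SE 0.51), 1.53 for C1qc (SE 0.68), and 1.67 for C5ar1 (SE 0.76), the 3 members under an unadjusted p of 0.05 (3.2% of all genes were higher at that level), and none was called (edgeR adjusted p = 1; 0% of all genes; DESeq2 also 0). The median over the 8 members was 1.54 (all genes 0.01), and without the libraries with spinal cord transcripts it was 2.33, with 5 members under an unadjusted p of 0.05 (4.85% of all genes were higher at that level), C1qa at 2.55 (SE 0.50, edgeR adjusted p = 0.15), and none called (0% of all genes). Other libraries moved these values down: C5ar1 was at 0.75 and the median at 1.11 without FOD-CCI replicate 2, the neutrophil-rich library, and C1qc was at 0.996 and the median at 1.10 without FOD-CCI replicate 4. Without FOD-CT replicate 2, the FOD-CT library highest for muscle markers, the median was 1.08. Neutrophil markers were higher in FOD-CCI in 4 of 4 tested (median 3.69) and macrophage markers in 10 of 10 (median 1.45). All 3 muscle markers tested were lower at an unadjusted p under 0.05 (edgeR, median −7.59). The part of these markers was not tested.

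Over both diets, C1qa had a log2FC of 1.18 for CCI against CT (SE 0.35, edgeR adjusted p = 0.198) and C1qc of 1.11 (SE 0.47, adjusted p = 0.386), and no member was called (0% of all genes; 2 members had an unadjusted p under 0.05, against 5.9% of all genes that were higher). Without the libraries with spinal cord transcripts, C1qa rose by a log2FC of 1.67 (SE 0.31, edgeR adjusted p = 0.025), while 1.87% of 14688 genes were called as higher. Leaving out either FOD-CT replicate 1 or FOD-CCI replicate 1 alone gave that call too, as did DESeq2 on all libraries, which called 476 of 14484 genes. All 3 muscle markers tested were lower in CCI at an unadjusted p under 0.05 (edgeR, median log2FC −8.53), and their part was not tested. The diet by injury interaction was positive for all 8 members (median 0.82, all genes 0.02), as it was for 51.4% of all genes. None was called (edgeR, 0% of all genes, DESeq2 also 0), and none had an unadjusted p under 0.05, against 5.01% of all genes. The largest value was that of Cfd, 3.01 (SE 1.44). By contrast, the difference between diets against the contralateral side was negative for all 8. Both use the left CCI libraries of the rats with both DRG. The interaction also uses FOD-CCI replicate 4, which had no contralateral DRG. Without the libraries with spinal cord transcripts the median interaction was 1.69, with 4 members under an unadjusted p of 0.05, against 4.09% of all genes that were higher, and none called. It was 0.36 without FOD-CCI replicate 4, 0.47 without FOD-CT replicate 2, and 0.05 with the replicate number as a block, so its size rested on single libraries and on the model. Neutrophil and red cell markers had positive interactions too (4 of 4 and 3 of 3 tested, medians 6.78 and 6.66), and without the libraries highest for neutrophil markers the median of the members was 0.81. In that fit Cfd fell to 1.46 (SE 1.37), C5ar1 from 2.01 to 1.04, and C3 from 1.21 to 0.50, while C1qa was at 0.79 with and without these libraries.

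Between diets on the left side, none of the members was called in FOD-CCI against SOD-CCI (median log2FC 0.85, all genes 0.04; C1qa 0.94, SE 0.50) or in FOD-CT against SOD-CT (median −0.37, all genes −0.01), and none had an unadjusted p under 0.05 in either, against 5.4% and 3.39% of all genes (edgeR; 0% of all genes were called in each; DESeq2 also 0). Without the libraries with spinal cord transcripts, the median log2FC of FOD-CCI against SOD-CCI was 1.12, with 2 members under an unadjusted p of 0.05, against 4.32% of all genes that were higher, and none called. Without FOD-CCI replicate 4 that median was 0.47. In FOD-CT against SOD-CT the median was −0.67 without the libraries with spinal cord transcripts (0 of 8 members higher), −0.59 without SOD-CT replicate 1, −0.13 without SOD-CT replicate 3, and 0.0019 without FOD-CT replicate 2. FOD-CCI contralateral against FOD-CT had no call either (median 0.71, or 0.99 without the libraries with spinal cord transcripts, 0.30 without FOD-CT replicate 2, and 0.42 without FOD-CCI contralateral replicate 3; all genes −0.01; 0% of all genes; no member at an unadjusted p under 0.05, against 1.71% of all genes; DESeq2 also 0). FOD-CCI replicate 4 held the highest level of C1qa (175 CPM), C1qb (80.1 CPM), C1qc (135 CPM), C1s (127 CPM), C3ar1 (6.74 CPM), and Serping1 (216 CPM) of all 20 libraries.

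The C1q chains varied with the macrophage markers, of which 10 were listed (Cd68, Csf1r, Cd163, Mrc1, Adgre1, Aif1, Ptprc, Tyrobp, Fcer1g, and Trem2). Their summed level was 24.7 to 74.4 CPM in SOD-CCI contralateral, 142 to 219 CPM in SOD-CCI, 114 to 214 CPM in FOD-CCI contralateral, and 104 to 455 CPM in FOD-CCI. In SOD rats, 10 of 10 markers had a higher left level and 9 of them an unadjusted p under 0.05 (edgeR), against 5.34% of all genes, with a median log2FC of 1.79, beside the 1.77 of the complement members. In FOD rats, 7 of 10 had a higher left level, 1 of them at that level, against 6.96% of all genes in either direction. Their median was 0.41, beside the 0.13 of the complement members. In bulk tissue, a change in the number of cells of a type and a change in RNA per cell cannot be told apart. The ratio of summed C1q to summed macrophage markers had a median of 0.788 in SOD-CCI and 0.553 in SOD-CCI contralateral DRG, with overlapping ranges of 0.688 to 0.834 and 0.505 to 0.957, and medians of 0.882 in FOD-CCI and 0.803 in FOD-CCI contralateral DRG. The summed C1q level itself was 112 to 151 CPM in SOD-CCI and 23.6 to 41.1 CPM in SOD-CCI contralateral DRG. The part of the macrophage markers in the C1q differences was not tested.

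**Figure D4:**
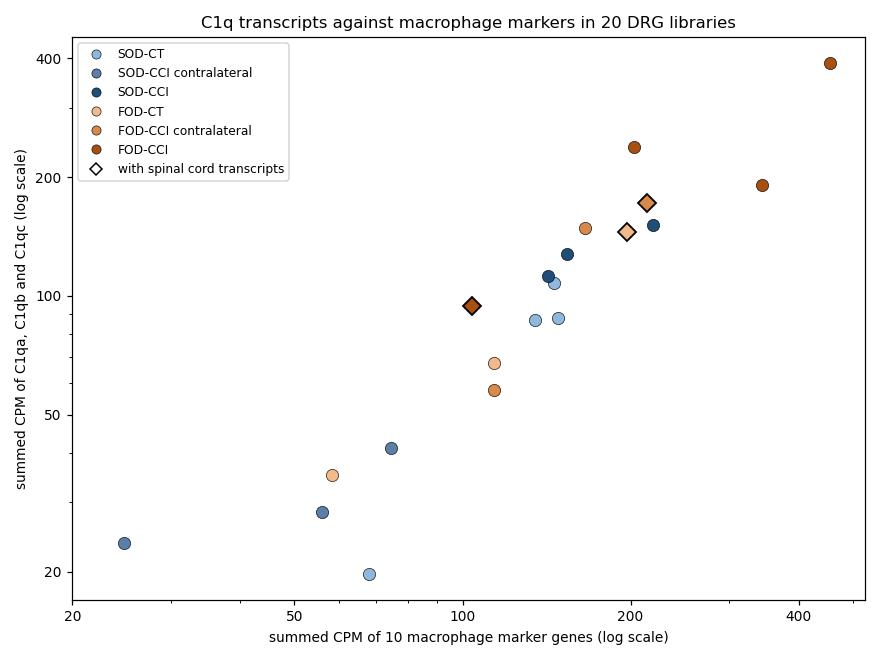
Summed CPM of C1qa, C1qb, and C1qc against the summed CPM of 10 macrophage markers in the 20 libraries (both axes logarithmic), colored by group, with diamonds for the libraries with spinal cord transcripts. SOD-CCI contralateral libraries lie at the low end of both axes (C1q 23.6 to 41.1 CPM) and FOD-CCI replicate 4 at the high end of both (C1q 390 CPM).

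The C1q protein is assembled from all 3 chains, and the balance of their transcripts varied between libraries. The C1qc to C1qa ratio of FPKM had a median of 0.72 over the 20 libraries and was lowest in FOD-CCI contralateral replicate 1 (0.189) and FOD-CCI replicate 1 (0.281), both with spinal cord transcripts, whereas FOD-CT replicate 1, also with them, was at 0.563. The C1qb to C1qa ratio ran from 0.331 to 0.699 in the 19 libraries with C1qb counts.

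Between rats of the same group, C1s varied with Serping1 and the C1q chains with each other. Over the 14 left libraries with the group means removed, Pearson's r of log2 CPM was 0.96 for C1s with Serping1, 0.886 for C1qa with C1qc, and 0.826 for C5ar1 with Cfd, and the 28 pairs ran from 0.141 (C1qb with Cfd) to 0.96, with a median of 0.609. The points share a library each, and so its scaling and cell content. The genes most like the mean of the C1q chains over these libraries were Bmp1 (r = 0.981), Klra1 (0.977), P2ry6 (0.97), Clec4a1 (0.969), and Cyth4 (0.967). For C1s they were C1r (0.979), Islr (0.974), LOC102552895 (0.961), Serping1 (0.96), and Foxc1 (0.96), and for Serping1 they were C1r (0.982), Igfbp6 (0.974), Stab1 (0.969), C1s (0.96), and Cd4 (0.956). For C3 the most alike were Itgam, a subunit of complement receptor 3 (0.938), LOC103692995 (0.928), Foxp1 (0.894), Cttnbp2 (0.888), and Ndst2 (0.88).

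Of 41 other complement genes on a list, 27 passed the filter in the comparison within rats and 4 had no counts in any library. None was called over both diets, in SOD rats, or in FOD rats in the fit of all 6 rats. Over both diets, 8 had an unadjusted p under 0.05 (edgeR), all with a higher left level, while 1686 of the 14549 genes tested were under it in either direction. The median log2FC of the 27 was 0.21. The highest value was that of Cfp, properdin, which stabilizes the alternative convertase (log2FC 2.37, SE 0.92), and the lowest that of C8g, a chain of the terminal complex (−0.36, SE 0.50). C1r, the partner of C1s, was at 62.9, 89.7, and 72.6 CPM on the left and 24.6, 62.8, and 53.3 CPM on the contralateral side of the SOD rats, with a log2FC of 0.80 in SOD rats (SE 0.29, edgeR adjusted p = 0.466) and 0.14 over both diets. C4a, a substrate of C1s, was at 104, 121, and 90.6 CPM on the left and 6.41, 26.0, and 40.6 CPM on the contralateral side of the SOD rats.

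Without FOD-CCI rat 1, where 4.32% of all genes were called as higher over both diets, the genes of this list that rose included C4a (log2FC 1.83), C2 (1.01), the C4 and C2 pair being what C1s cleaves, Cfp (3.01), Itgb2, the shared chain of the leukocyte integrins (2.42), and the regulator Cd59 (0.60), with edgeR adjusted p from 0.0176 to 0.0717. In the same fit, C4a and C2 rose in SOD rats (log2FC 2.45 and 1.66, edgeR adjusted p = 0.0286 and 0.0474; 2.03% of all genes were called as higher), and in FOD rats Vtn, which encodes the terminal pathway inhibitor vitronectin, fell by 2.09 (adjusted p = 0.0822, 2 rats; 0.914% of all genes were called). The C4a and C4b genes are near-identical copies, so their counts may be split between them.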

How the data were processed

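Per the labels, the tools behind the count table were fastp, HISAT2, and featureCounts 1.5.0-p3. The deposited raw counts were used for all tests. The deposited FPKM values, which the authors made from those counts with gene length, were used only to compare levels between genes. Genome build, strand setting, and handling of multiply aligned reads were not given in the sources used here, so overlapping genes and near-identical copies are uncertain. All 20 columns were assigned from the labels (0 left over), and each sham or CCI library on the left came from its own rat. Depth was 22547190 to 54437581 counts per library, and p-values measure the spread between rats.

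A gene entered a fit when 90% or more of its libraries held 10 or more counts. Quasi-likelihood tests (two-sided, TMM-scaled; edgeR 4.0.16, limma 3.58.1, R 4.3.3) were run over all genes in 3 models: the 14 left libraries by group, the 12 libraries of the 6 rats with both DRG (rat as block), and the 7 sham with the 6 contralateral libraries. Calls needed a fold change of 1.2 or more and a Benjamini-Hochberg adjusted p no higher than 0.1. The rat block follows from the labels, and deviations from group means correlated between the 2 DRG of a rat at r = 0.114 to 0.43. C3ar1, below the filter, was tested with exact permutation tests on log2(CPM + 1) (SciPy 1.17.1). Alternatives were DESeq2 1.42.0, its size factors, no filter, leaving out libraries, a replicate block or none, and fits of only the groups compared. Leaving out the libraries highest for neutrophil markers was chosen after seeing the data. The libraries with spinal cord transcripts were also identified from these data. Scripts were tested on simulated data.

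All 9 members are named; other complement genes are named when called, highest or lowest over the 6 rats, or a partner of a member, and likeness genes are the 5 highest Pearson r per target. Not every called gene of the list of other complement genes is reported here. The members, lists, and rules were chosen with earlier results of these data known. Promoters are RefSeq sequences of build GRCr8, and gene places come from the RefSeq table of that build, which matched all 9 members by symbol.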

Additional observations from a re-analysis of the deposited data

Results flagged for a closer look

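C3 in FOD-CCI replicate 2 stood apart from the other 3 FOD-CCI libraries: it was at 85.4 CPM there and at 38.1, 33.0, and 30.2 CPM in replicates 1, 3, and 4, a gap of 0.857 of the group's range, which is past the critical value of Dixon's test for an outlying value. The same library had the highest neutrophil markers (summed 2590 CPM) and red cell markers (summed 5740 CPM) of all 20, and their part in the C3 level was not tested. Of 18 tests of a member in a group of 4 libraries, 1 was past its critical value, and chance gives about 1 in 20.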

How the results depend on the processing

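The 1 call over both diets against the contralateral side (C1qb) depended on the processing: the count of members called was 4 with DESeq2, 4 without a filter on low counts, 0 with DESeq2 size factors in edgeR, 4 without the libraries with spinal cord transcripts, 0 without those highest for neutrophil markers, and 0 to 4 when each rat was left out. In SOD rats it was 0 as reported, 6 with DESeq2, 6 without the filter, 6 without the libraries with spinal cord transcripts, 1 (C1qa) without those highest for neutrophil markers, and 0 to 6 over left-out rats. Among all genes, the calls over both diets were 140 of 14549 as reported and 790 with DESeq2. They were 456 of 27477 without the filter and 1146 of 14992 without the libraries with spinal cord transcripts. In SOD rats these counts were 19, 472, 220, and 471. DESeq2 called 2 members for the difference between diets (60 of 14549 genes), 1 for CCI against CT over both diets (476 of 14484), and 1 for FOD-CCI contralateral against SOD-CCI contralateral (58 of 14007). CCI against CT over both diets had 1 call without the libraries with spinal cord transcripts and 0 to 1 over left-out libraries. Other counts of calls were the same under every alternative run. The causes were not tested, except that leaving out libraries also leaves fewer samples.

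Pairing of the 2 DRG of a rat was part of the reported fit. With no replicate block, 0 members were called over both diets, and in FOD rats Cfd was at 1.02 and C5ar1 at 0.52. The labels' replicate numbers also join sham and CCI rats, but those are different animals (r of −0.0761 to 0.0768 in SOD and 0.192 to 0.429 in FOD). A replicate block on these numbers changed no count of members called (0 with and without it) but lowered the median log2FC of the members from 0.82 to 0.05 for the diet by injury interaction, from 1.54 to 0.98 for FOD-CCI against FOD-CT, and from 0.85 to 0.48 for FOD-CCI against SOD-CCI, raised it from 0.29 to 0.52 for SOD-CCI against SOD-CT, and moved it from −0.37 to −0.05 for FOD-CT against SOD-CT.

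Directions turned in FOD rats without the libraries with spinal cord transcripts (Cfd 0.78, C5ar1 0.64) and without those highest for neutrophil markers (C1qa −0.21, C1qb −0.085), and over both diets without the latter (Cfd −0.25, C5ar1 −0.35). Over left-out rats the log2FC in FOD rats ran from −0.21 to 1.17 for C1qa, −0.085 to 1.2 for C1qb, −0.86 to 0.35 for C1s, −1.52 to 0.78 for Cfd, and −1.80 to 0.64 for C5ar1, and over both diets from −0.25 to 0.91 for Cfd and −0.35 to 0.86 for C5ar1. C3ar1 in FOD-CT against SOD-CT was at −0.05 with a pseudocount of 1 and at 0.20 with 0.1. No alternative was left out. Counts as low as those of C3ar1 (0 in 5 libraries) and 3 or 4 rats per group limit what could be detected.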
